A study of Ovis aries with 9 samples.

Results

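Fragments of 5S and 5.8S rRNA, the smallest RNAs of the large ribosomal subunit, were described in the sperm small RNA of F1 rams. The members are the distinct sequences whose deposited annotation holds the term 5S-rRNA or 5.8S-rRNA and names no miRNA, tRNA, 28S rRNA or 18S rRNA. They are 3763 of the 3309646 distinct sequences of the series, of which 3424 carry the 5S term and 339 the 5.8S term. None carries both terms, so the species were kept apart. All of them match the genome by the deposited flag, and none carries a further annotation term.

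The rams, labelled WT, were offspring of mothers under over feeding (OVER), restricted feeding (RES) or standard feeding (CON). The series asks how a mother's nutrition during gestation bears on the small RNAs of her sons' sperm. The semen was treated with a detergent lysis buffer against somatic cells. RNA between 15 and 50 nt was size-selected and sequenced, and the deposited reads run between 15 and 42 nt. Ages are not stated in the labels used here, and marker transcripts of sperm were not analysed here. The labels list 3 samples per group, but the 3 tables of each group are identical in every read count. Each group was therefore treated as 1 library, with 8287937 reads in OVER, 13160116 in RES and 9983895 in CON. No difference below has a replicate check. The 95% intervals cover counting error only, because each group is 1 library. Reads without molecular identifiers are not independent molecules, so the intervals can be too narrow even for that.

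Both species sit in the large subunit but are made differently. 5S rRNA is transcribed from its own genes by RNA polymerase III and folds with its first and last bases paired in a stem. 5.8S rRNA is cut out of the RNA polymerase I precursor that also yields 18S and 28S rRNA, and it pairs with 28S rRNA. Sperm lose most of their cytoplasm during spermatogenesis, and fragments of rRNA and tRNA are known as abundant small RNAs of mature mammalian sperm.

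The 5S members overlap into 1 chain of 119 nt with a GC content of 61.3%, and every position below is counted along it. Many reads start at bases 1, 35 and 36 and, in RES and CON, at base 84. Every member read was placed on this chain with at most 1 mismatch. Reads without a mismatch were 83.8% of 5S reads in OVER, 91.0% in RES and 85.04% in CON. The sheep gene table of RefSeq (assembly ARS-UI_Ramb_v3.0) lists 25 rRNA genes, of which 9 are 119 nt long, without naming their species. In the fold predicted by RNAfold (39 base pairs, -52.70 kcal/mol), bases 1 to 9 pair with bases 110 to 118.

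The leading 5S sequences were chosen by the highest mean reads per 1000000 reads (RPM) over the 3 libraries. Of these, 4 are shown, because they come from the 5′ end, the interior and the 3′ end of the molecule. The capital marks base 117, which varies between reads.
5S bases 1 to 19: gtctacggccataccaccc
5S bases 35 to 63: tcgtctgatctcggaagctaagcagggtc
5S bases 82 to 119: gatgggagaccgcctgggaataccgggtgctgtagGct
5S bases 84 to 119: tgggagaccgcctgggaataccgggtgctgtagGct

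Annotated 5S reads made up a small share of each library, were lowest in OVER and differed little between RES and CON. They counted 2331 RPM in OVER (95% interval 2298 to 2364, 19317 reads), 3434 RPM in RES (3403 to 3466, 45196 reads) and 3094 RPM in CON (3059 to 3128, 30887 reads). RPM is a share of a bulk library, so fewer cells of a type, less RNA per cell and more of other RNAs cannot be told apart. The log2 ratio was -0.41 in OVER against CON (-0.43 to -0.38), 0.15 in RES against CON (0.13 to 0.17) and -0.56 in OVER against RES (-0.58 to -0.53). The sign of the RES against CON value depends on the scaling: it was -0.08 per annotated read and -0.08 with TMM factors.

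The 5.8S members were far scarcer and were highest in OVER. They counted 159 RPM in OVER (151 to 168, 1321 reads), 106 RPM in RES (101 to 112, 1399 reads) and 90.4 RPM in CON (84.6 to 96.5, 903 reads). The log2 ratio was 0.82 in OVER against CON (0.69 to 0.94), 0.23 in RES against CON (0.11 to 0.36) and 0.58 in OVER against RES (0.47 to 0.69). RES against CON was 0.0027 per annotated read and -0.0095 with DESeq2 size factors. All 3 ratios of 5.8S turned negative when the other library was reweighted to equal read lengths, a step that gave no intervals. Among reads of 25 to 42 nt alone the 3 ratios stayed positive. They were 0.83 in OVER against CON (0.60 to 1.05), 0.41 in RES against CON and 0.42 in OVER against RES. Adding reads outside the annotation also turned ratios negative, but this depended on which reads were added, as described below.

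Among annotated reads, length separated the libraries more than level did. In OVER, 53.0% of 5S reads were 15 to 20 nt long, against 17.4% in RES and 11.005% in CON. Fragments of 29 to 42 nt were 12.5% of 5S reads in OVER, 53.9% in RES and 67.8% in CON. The median 5S fragment was 20 nt in OVER, 29 nt in RES and 32 nt in CON. The commonest length was 19 nt in OVER, with 18.7% of 5S reads, and 36 nt in RES and in CON, with 10.2% and 13.1%.

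For 5.8S, 62.7% of reads in OVER were 15 to 20 nt long, against 36.03% in RES and 25.5% in CON. The commonest 5.8S length was 15 nt in OVER, 27 nt in RES and 30 nt in CON. Reads over 31 nt, which carry much of 5S in RES and CON, were rare in 5.8S in all 3 libraries.

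**Figure D1:**
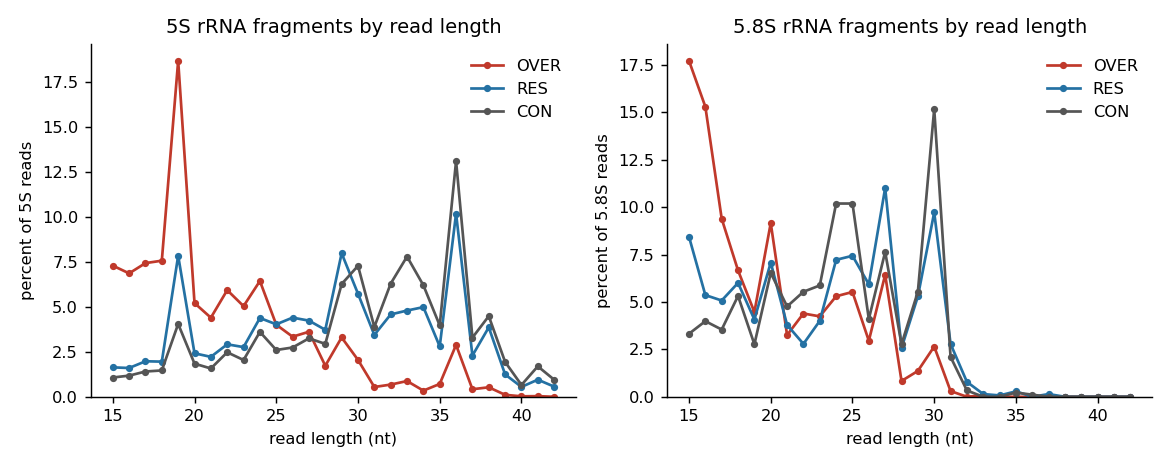
Share of 5S reads (left) and of 5.8S reads (right) at each read length in nt, as a percent of that species' reads, with 1 line per library. For 5S, OVER peaks at 19 nt (18.7%) while RES and CON peak at 36 nt (10.2% and 13.1%). For 5.8S, OVER peaks at 15 nt, RES at 27 nt and CON at 30 nt.

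All reads, not the rRNA fragments alone, were shorter in OVER. Reads of 15 to 20 nt were 29.6% of the OVER library, 10.3% of the RES library and 5.98% of the CON library, and the mean read length was 23.3, 27.2 and 28.5 nt in that order. Whether this comes from the animals, the RNA or the library preparation cannot be told apart with 1 library per group. Each length window was therefore also scaled by the library's own reads of that window.

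In the 29 to 42 nt window 5S stayed low in OVER on this scale. It counted 1356 per 1000000 reads of that window in OVER, 3752 in RES and 3507 in CON, a log2 ratio of -1.37 in OVER against CON (-1.43 to -1.31). The 15 to 20 nt window turned round: 5S held 1236 RPM of all reads in OVER, 598 in RES and 340 in CON. Per 1000000 reads of that window it held 4179 in OVER, 5788 in RES and 5695 in CON. Of reads of 21 to 28 nt, 5S held 1642 per 1000000 in OVER, 2442 in RES and 1918 in CON.

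With the CON library reweighted to the read lengths of OVER, 5S would count 3232 RPM in CON, and the observed 2331 RPM in OVER is 0.721 times that. For 5.8S the same step gave 203 RPM in CON, and OVER, at 159 RPM, was 0.786 times that, so the direction reversed. The RES library, compared with CON given RES lengths, held 1.14 times as much 5S and 0.932 times as much 5.8S.

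The annotated 5S fragments were not spread evenly over the molecule. Reads beginning at base 1 (5′ fragments) made up 20.04% of 5S reads in OVER, 32.6% in RES and 33.5% in CON. Those ending at base 119 (3′ fragments) made up 26.6% in OVER, 24.6% in RES and 34.8% in CON. All others, called interior, made up 53.4% in OVER, 42.8% in RES and 31.8% in CON. Reads running past base 119, described below, carry no 5S term and are left out of these shares and of the coverage. They counted 35828 reads in OVER, 202436 in RES and 182016 in CON, more than all annotated 5S reads of each library. Coverage was lowest at base 70 in RES and at base 74 in CON, between the interior and the 3′ fragments, but at base 29 in OVER.

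**Figure D2:**
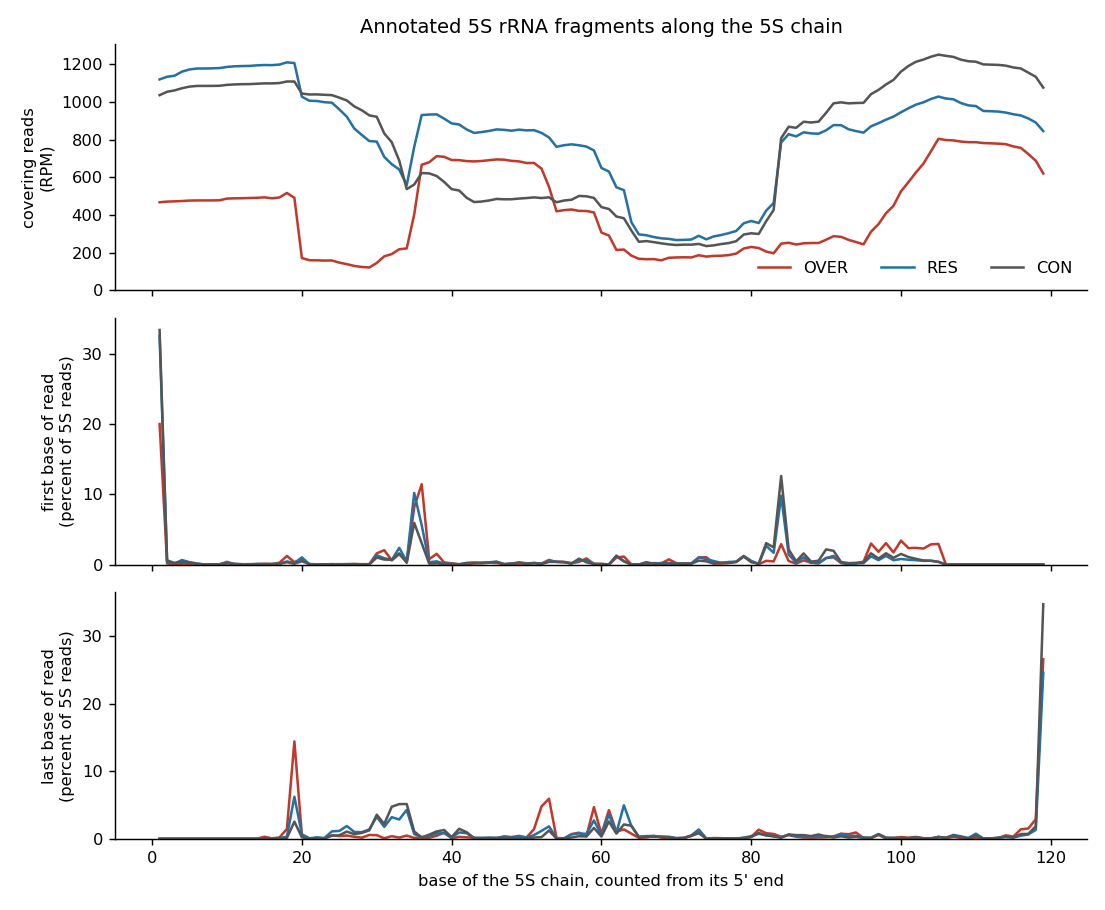
Annotated 5S reads along the 119-nt chain: reads covering each base in RPM (top), and the percent of 5S reads that start (middle) or end (bottom) at each base, with 1 line per library. Starts pile up at bases 1, 35 and 36 in all 3 libraries and at base 84 in RES and CON, where OVER has 2.91% of starts. The line of ends has a peak at base 19 that is highest in OVER.

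The 5′ fragments counted 467 RPM in OVER, 1119 in RES and 1035 in CON, and where they stopped differed between the libraries. Those stopping at base 19 counted 335 RPM in OVER, 212 in RES and 77.8 in CON, 4.30-fold higher in OVER and 2.72-fold higher in RES than in CON. Their log2 ratios against CON were 2.11 in OVER and 1.45 in RES. All compared sequences of 15 to 20 nt had medians of 2.56 and 1.21, so the OVER value lay below that of short sequences in general. Longer 5′ fragments were scarce in OVER: those of 29 to 42 nt counted 34.3 RPM in OVER, 653 in RES and 831 in CON. This is 24.3-fold lower in OVER than in CON (log2 -4.60, interval -4.78 to -4.43) and 1.27-fold lower in RES. In the predicted fold, base 19 pairs with base 59.

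Among single sequences, the fragment of bases 1 to 19 counted 328 RPM in OVER (2716 reads), 209 in RES (2748) and 76.2 in CON (761). It was the first-ranked 5S sequence of OVER, with 14.1% of its 5S reads. The log2 ratio was 2.10 in OVER against CON (1.99 to 2.22), 1.45 in RES against CON (1.34 to 1.57) and 0.65 in OVER against RES (0.57 to 0.73).

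**Figure D3:**
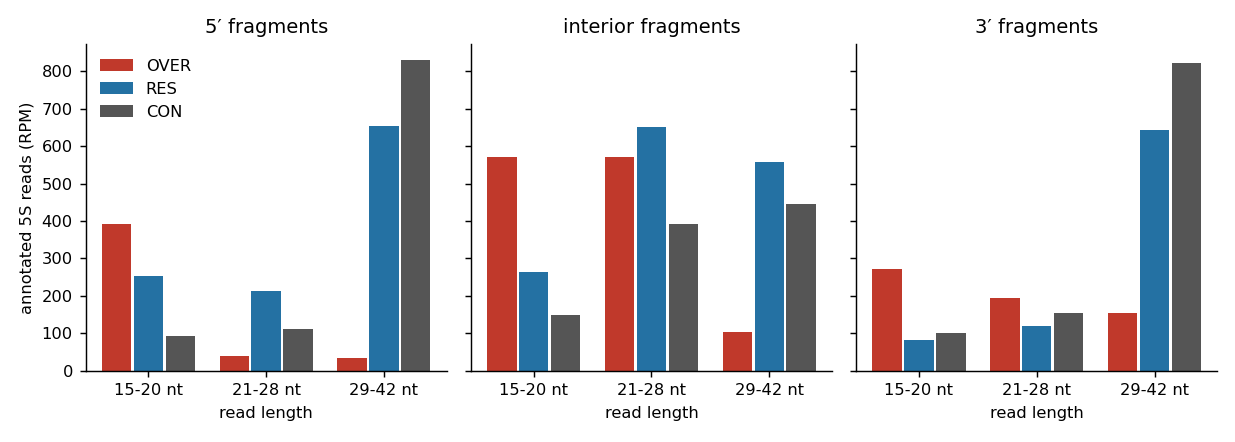
Annotated 5S reads in RPM, in bars from 0, for fragments starting at base 1 (5′), interior fragments and fragments ending at base 119 (3′), each split by read length. The 5′ fragments of 29 to 42 nt stand at 34.3 RPM in OVER, 653 in RES and 831 in CON, while those of 15 to 20 nt stand at 393, 252 and 92.8 RPM.

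Interior fragments often began at base 35 or 36. Fragments from these bases counted 458 RPM in OVER, 543 in RES and 278 in CON, higher than CON in both other libraries (log2 0.72 in OVER, 0.97 in RES). They again differed in length. The sequence of bases 35 to 63 counted 17.6 RPM in OVER, 118 in RES and 40.4 in CON, 2.91-fold higher in RES than in CON.

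Shorter sequences from base 35 or 36 are shown here beside a further short interior sequence from base 58. Among the 5S sequences compared, bases 36 to 51 and 36 to 52 gave the highest ratios of OVER against CON. Bases 36 to 52, 35 to 52 and 58 to 73 gave the 3 highest of RES against CON.
5S bases 36 to 51: cgtctgatctcggaag
5S bases 36 to 52: cgtctgatctcggaagc
5S bases 35 to 52: tcgtctgatctcggaagc
5S bases 58 to 73: agggtcgggcccggtt
Bases 36 to 52 counted 64.3 RPM in OVER (533 reads), 16.4 in RES (216) and 1.603 in CON (16). The log2 ratio was 5.33 in OVER against CON (4.61 to 6.14) and 3.36 in RES against CON (2.62 to 4.19). Bases 36 to 51 counted 16.7 RPM in OVER, 3.57 in RES and 0.401 in CON, which rests on 4 reads in CON. Bases 35 to 52 had a log2 ratio of 3.38 in OVER and 2.61 in RES, and bases 58 to 73 of 2.81 in OVER and 2.54 in RES, each against CON.

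The 3′ fragments counted 620 RPM in OVER, 844 in RES and 1075 in CON. Those of 29 to 42 nt were 5.32-fold lower in OVER than in CON (154 RPM in OVER, 643 in RES, 821 in CON). Those of 15 to 20 nt were 2.73-fold higher in OVER than in CON (272 RPM in OVER, 82.1 in RES, 99.9 in CON). Among annotated reads, the short 3′ fragments, unlike the short 5′ fragments, were not higher in RES than in CON (log2 -0.28, -0.41 to -0.16). These counts leave out reads running past the end of the chain, described below. Of those, 23.7% of 35828 reads in OVER, 1.64% of 202436 in RES and 1.24% of 182016 in CON were 15 to 20 nt long. Whether the 2.73-fold value and the contrast with the 5′ fragments hold with those reads included was not tested.

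The sequence of bases 84 to 119 counted 56.6 RPM in OVER (469 reads), 294 in RES (3868) and 332 in CON (3316), a log2 ratio of -2.55 in OVER against CON (-2.70 to -2.41). It was the leading annotated 5S sequence of RES and of CON. Bases 82 to 119 counted 9.41 RPM in OVER, 79.8 in RES and 82.4 in CON. Among the shortest 3′ sequences the order was turned round.
5S bases 105 to 119: cgggtgctgtagGct
5S bases 104 to 119: ccgggtgctgtagGct
5S bases 102 to 119: taccgggtgctgtagGct
Bases 105 to 119 counted 34.03 RPM in OVER (282 reads), 1.75 in RES (23) and 1.10 in CON (11). Bases 104 to 119 counted 25.7 RPM in OVER, 2.74 in RES and 1.402 in CON, and bases 102 to 119 counted 10.01 RPM in OVER, 1.82 in RES and 0.901 in CON. These were the 3 highest ratios of OVER against RES, with log2 values of 4.28, 3.23 and 2.46.

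Most 5S reads that reached the 3′ end were not annotated as 5S. The chain made from annotated reads stops at base 119, and no annotated read passes it. Reads that continue 1 to 3 bases further counted 4323 RPM in OVER (35828 reads), 15383 in RES (202436) and 18231 in CON (182016). They made up 88.2% of the reads at or past the end in OVER, 95.1% in RES and 94.6% in CON. Of these longer reads 99.1% in OVER, 99.9% in RES and 99.9% in CON had no annotation at all, and over 99% in each library matched the genome. In human, mature 5S rRNA carries a short run of U at its 3′ end.

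A single added T was the usual extension, in 26441 reads of OVER, 178296 of RES and 157948 of CON among reads with G at base 117. Both sequences shown are among the most frequent, with the bases past the chain in capitals.
5S bases 84 to 119 plus T: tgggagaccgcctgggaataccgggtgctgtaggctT
5S bases 82 to 119 plus T: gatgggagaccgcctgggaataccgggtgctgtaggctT
The 37-nt sequence counted 929 RPM in OVER (7699 reads), 7995 in RES (105215) and 8945 in CON (89310). That is 9.63-fold lower in OVER than in CON (log2 -3.27, -3.30 to -3.23) and 1.12-fold lower in RES. In RES and CON this 1 sequence, which the annotation leaves out, held more reads than all annotated 5S sequences together. The 39-nt sequence counted 159 RPM in OVER, 1583 in RES and 1644 in CON.

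Reads outside the annotation that contain a whole member sequence of 5S were then added to the members. Those without any annotation counted 4126 RPM in OVER, 15534 in RES and 18548 in CON, which is 1.77, 4.52 and 5.995 times the annotated 5S reads. With all such reads 5S counted 6464 RPM in OVER, 18974 in RES and 21653 in CON. The log2 ratio became -1.74 in OVER against CON, -0.19 in RES against CON and -1.55 in OVER against RES. The added reads averaged 28.8 nt in OVER, 36.03 nt in RES and 35.9 nt in CON. Given equal read lengths these ratios shrank or turned. With CON reweighted to the read lengths of OVER, the sum would be 7103 RPM in CON, and OVER was 0.910 times that. Against RES reweighted in the same way OVER was 1.03 times as high (log2 0.04), and RES against reweighted CON was 1.20 times as high (log2 0.26), both with the opposite sign of the unweighted values.

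Base 117 of the chain was G in most reads and A in some, and the share of A depended on the library and on which reads were counted. Among annotated reads covering the base, G117A was found in 33.8% in OVER (32.6 to 35.1), 14.8% in RES (14.1 to 15.4) and 21.4% in CON (20.7 to 22.2). Among all reads at or past the end it was 9.87% in OVER (9.58 to 10.2), 2.05% in RES (1.99 to 2.11) and 3.93% in CON (3.85 to 4.02). Reads of 29 to 42 nt gave 1.997% in OVER, 0.719% in RES and 1.96% in CON, so among them OVER was close to CON and still above RES. In level, the A form counted 484 RPM in OVER, 332 in RES and 759 in CON. In the predicted fold base 117 pairs with base 2.

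**Figure D4:**
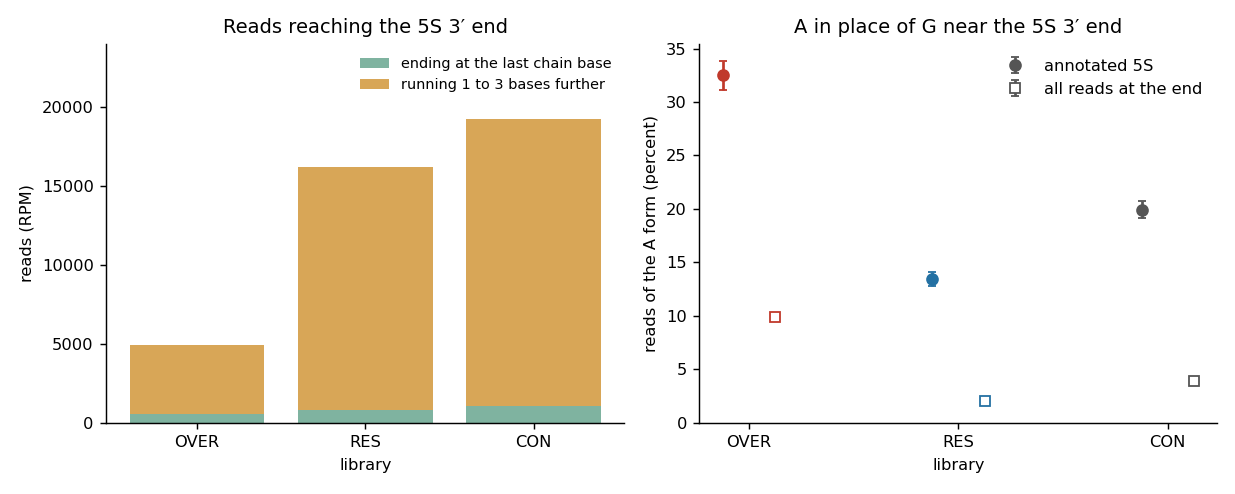
Left, reads reaching the 5S 3′ end in RPM, as bars from 0 split into reads ending at base 119 and reads running 1 to 3 bases further, at 4323, 15383 and 18231 RPM in OVER, RES and CON. Right, percent of reads ending at base 119 with the 5S term (filled circles) or of all reads at or past the end (open squares) that have A at base 117, with 95% Clopper-Pearson intervals.

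The 3 lowest ratios of RES against CON were all A-form sequences ending at base 119, shown with the A in capitals.
5S bases 90 to 119, A form: accgcctgggaataccgggtgctgtagAct
5S bases 91 to 119, A form: ccgcctgggaataccgggtgctgtagAct
5S bases 97 to 119, A form: gggaataccgggtgctgtagAct
Bases 90 to 119 of the A form counted 6.64 RPM in OVER (55 reads), 16.03 in RES (211) and 43.2 in CON (431), a log2 ratio of -1.43 in RES against CON (-1.67 to -1.19). Bases 91 to 119 had a log2 ratio of -1.77 and bases 97 to 119 of -1.23 in RES against CON. Other substitutions were rarer. A88T was found in 7.65% of covering reads in OVER, 2.24% in RES and 3.43% in CON, and T119C in 4.50% in OVER, 3.55% in RES and 3.19% in CON. T53C was found in 1.34% in OVER, against 0.178% in RES and 0.142% in CON. These are differences from the chain, and their source was not tested.

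Counted as single sequences, 5S members with at least 100 reads in the 2 libraries compared were called apart at 2-fold. In OVER against CON, 20 of 80 were higher by that measure and 33 lower. Among all 9319 sequences compared, 34.5% were higher and 34.7% lower by the same rule. With DESeq2 size factors the split of the 80 was 26 higher and 28 lower. In RES against CON, 20 of 96 were higher and 7 lower, beside 26.8% and 13.9% of all 11737 sequences, and TMM factors gave 17 higher and 11 lower. In OVER against RES, 23 of 94 were higher and 41 lower, beside 25.4% and 37.8% of all 11256 sequences, and TMM factors gave 35 and 36. Over all lengths, then, the members' shares lay near the background.

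Within length windows the members of OVER against CON stood furthest from the background among long sequences. Of 29 to 42 nt, 28 of 29 5S sequences were at least 2-fold lower in OVER than in CON, where the background was 69.8%, and none was higher (background 6.35%). Their median log2 ratio was -2.91, against -1.80 for all sequences. Lengths inside a window were not matched between the members and all sequences, so part of such a gap can be length. Of 15 to 20 nt, 15 of 24 were higher and none lower, beside 80.5% and 1.6% of all sequences, with a median of 1.70 against 2.56. Of 21 to 28 nt, 5 of 27 were higher and 5 lower, beside 31.8% and 24.6%.

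RES against CON showed smaller departures. Of 15 to 20 nt, 8 of 19 were higher and 2 lower, beside a background of 56.3% and 2.4%. Of 21 to 28 nt, 10 of 35 were higher and 1 lower, beside 28.7% and 11.8%, and of 29 to 42 nt 2 of 42 were higher and 4 lower, beside 15.1% and 19.8%. In OVER against RES, 21 of 29 sequences of 15 to 20 nt were higher and 2 lower, beside 54.3% and 8.9%. Of 21 to 28 nt, 2 of 35 were higher and 11 lower, beside 21.5% and 32.6%. Of 29 to 42 nt, 28 of 30 were lower and none higher, beside 68.1% and 7.17%. OVER is shared by 2 of these comparisons, as are RES and CON.

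By position, and again at 2-fold, 16 of 20 sequences starting at base 1 were lower in OVER than in CON and 2 higher. Of those ending at base 119, 13 of 31 were lower and 8 higher, and of interior ones 4 of 29 were lower and 10 higher. Over all sequences 34.7% were lower and 34.5% higher, and at 29 to 42 nt, where most of the 5′ ones lie, 69.8% were lower. In RES against CON, 0 of 22 5′ sequences were lower and 7 higher, 5 of 30 3′ sequences were lower and 0 higher, and 2 of 44 interior ones were lower and 13 higher. The background there was 13.9% lower and 26.8% higher. Overlapping sequences share their source and are not independent.

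**Figure D5:**
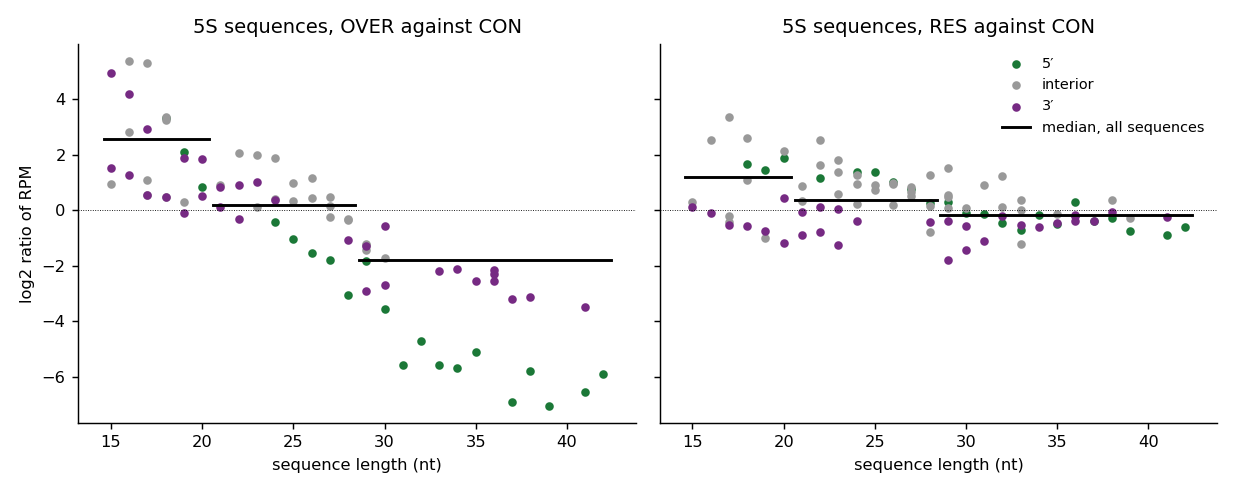
Log2 ratio of RPM for each 5S sequence with at least 100 reads in the 2 libraries, against its length in nt, for OVER against CON (left) and RES against CON (right). Colours give fragments starting at base 1 (5′), interior fragments and fragments ending at base 119 (3′). Black lines are the medians of all sequences of 15 to 20, 21 to 28 and 29 to 42 nt. On the left the longer 5′ fragments lie furthest below their line.

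Reads with the 5.8S term came from few places on the molecule. Overlapping members formed 4 stretches that held all but 1 read in OVER and 1 in RES. The borders of the stretches are those of the annotated reads. Of all reads with a whole 5.8S member, 86.3% in OVER, 95.9% in RES and 97.7% in CON lacked the term and were not placed. No file used here holds the whole 5.8S sequence, so the numbers of the stretches give no order along it. They are shown because their shares differed between the libraries.
5.8S stretch 1: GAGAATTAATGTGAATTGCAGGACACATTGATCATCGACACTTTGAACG
5.8S stretch 2: TCGATGAAGAACGCAGCTAGCTG
5.8S stretch 3: TGGATCACTCGGCTC
5.8S stretch 4: GGGGCTACGCCTGTCTGAGCGT
Stretch 1, of 49 nt, held 75.1% of 5.8S reads in OVER, 84.7% in RES and 95.6% in CON, at 120 RPM, 90.0 RPM and 86.4 RPM. Its log2 ratio was 0.47 in OVER against CON (0.34 to 0.60) and 0.06 in RES against CON (-0.07 to 0.19). Stretch 2 counted 20.9 RPM in OVER, 9.12 in RES and 3.005 in CON, 6.95-fold higher in OVER and 3.03-fold higher in RES than in CON. Stretch 3 is a single 15-nt sequence with 60 reads in OVER, 19 in RES and 8 in CON. Stretch 4 had 95 reads in OVER, 72 in RES and 2 in CON, a log2 ratio of 5.84 in OVER against CON with a wide interval (3.95 to 8.90). The smaller stretches together held a larger share of the annotated 5.8S reads in OVER, and to a lesser degree in RES, than in CON. Stretches 2, 3 and 4 are 23, 15 and 22 nt long, so only short reads can lie on them. All compared sequences of 15 to 20 nt had a median log2 ratio of 2.56 in OVER and 1.21 in RES against CON. The values of the stretches were not adjusted for read length.

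The leading 5.8S sequences were the 5 with the highest mean RPM, and 4 of them lie on stretch 1.
5.8S stretch 1 bases 14 to 43: aattgcaggacacattgatcatcgacactt
5.8S stretch 1 bases 14 to 40: aattgcaggacacattgatcatcgaca
5.8S stretch 1 bases 14 to 38: aattgcaggacacattgatcatcga
5.8S stretch 1 bases 1 to 24: gagaattaatgtgaattgcaggac
5.8S from stretch 2: cgatgaagaacgcagctagc
The first 3 share their first base and differ in their last, as the 5S fragments from base 1 do. The 30-nt one counted 3.98 RPM in OVER (33 reads), 9.35 in RES (123) and 13.2 in CON (132), a log2 ratio of -1.73 in OVER against CON (-2.33 to -1.17). The 27-nt one counted 8.69 RPM in OVER, 10.5 in RES and 5.61 in CON, and the 25-nt one 4.58, 4.33 and 3.91 RPM in that order. For the 25-nt sequence the intervals of all 3 ratios include 0. The 24-nt one, from base 1 of the stretch, was lowest in RES. It counted 5.07 RPM in OVER (42 reads), 2.58 in RES (34) and 6.01 in CON (60). Its log2 ratio was -1.22 in RES against CON (-1.87 to -0.59). The 20-nt sequence from stretch 2 counted 6.27 RPM in OVER (52 reads), 3.65 in RES (48) and 0.901 in CON (9).

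As for 5S, more reads with 5.8S sequence stood outside the 5.8S term than inside it. Reads that contain a whole 5.8S member and carry the general term rRNA counted 509 RPM in OVER, 1371 in RES and 1305 in CON, which is 3.20, 12.9 and 14.4 times the members. Of those reads 25.2% in OVER, 13.7% in RES and 8.79% in CON matched the genome. One genome-matching example extends stretch 3, in capitals, by 3 bases and counted 34.9 RPM in OVER, 14.1 in RES and 12.3 in CON. Its order differs from that of the rRNA-term reads together, which were lowest in OVER. Longer rRNA-term sequences that extend stretch 3 at both ends, of 21 and 23 nt, were also lowest in OVER. They counted 4.71 and 4.46 RPM in OVER, 6.84 and 5.17 in RES, and 8.51 and 8.11 in CON. The first example is shown.
5.8S stretch 3 extended: TGGATCACTCGGCTCgtg
Reads with a whole member and no annotation counted 494 RPM in OVER, 1142 in RES and 2457 in CON. Under 0.25% of them matched the genome, and their sequences are not shown. Added together, 5.8S counted 1163 RPM in OVER, 2620 in RES and 3853 in CON. The log2 ratio then was -1.73 in OVER against CON (-1.76 to -1.70) and -0.56 in RES against CON (-0.58 to -0.54), the opposite sign of the annotated reads. These signs rest largely on reads that do not match the genome. With genome-matching reads alone added, 5.8S counted 289 RPM in OVER, 295 in RES and 206 in CON, a log2 ratio of 0.49 in OVER against CON (0.41 to 0.58) and 0.52 in RES against CON (0.44 to 0.60). With the reads of the term rRNA alone added, it was -1.06 in OVER against CON and 0.08 in RES against CON. The source of the reads that do not match the genome was not tested.

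Other ribosomal RNAs were set beside the members. 28S rRNA counted 36220 RPM in OVER, 41335 in RES and 29876 in CON, and 18S rRNA 20605, 19226 and 20502 RPM in that order. 18S rRNA thus had a log2 ratio of 0.01 in OVER against CON, where annotated 5S had -0.41. Fragments of 15 to 20 nt were 53.7% of 28S reads in OVER, 19.6% in RES and 14.1% in CON, beside 53.0%, 17.4% and 11.005% of 5S. The same share was 40.3% in OVER, 12.9% in RES and 8.02% in CON for 18S rRNA, and 40.5%, 17.5% and 9.33% for mitochondrial rRNA. Of other products of RNA polymerase III, nuclear tRNA counted 121627 RPM in OVER, 168307 in RES and 258688 in CON. Y RNA, a small RNA of Ro particles, counted 41640 RPM in OVER, 154340 in RES and 74054 in CON. Reads under the general term misc_RNA, which can hold further RNA polymerase III products, had another order: 143498 RPM in OVER, 91470 in RES and 47141 in CON, 3.04-fold higher in OVER than in CON. In RPM of all reads, 5S, with or without reads outside the annotation, was lowest in OVER. So were tRNA and Y RNA, but not misc_RNA. In RPM of the reads of 25 to 42 nt alone, tRNA counted 318267 in OVER, 239002 in RES and 328576 in CON. Y RNA counted 125886, 234553 and 96026 in that order, so neither was lowest in OVER. Annotated 5S of these lengths stayed lowest in OVER, with log2 ratios of -0.80 against CON and -1.01 against RES. With the outside reads and equal read lengths, 5S in OVER was not below RES (log2 0.04) but was below CON (-0.14).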

How the data were processed

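Small RNA of F1 ram sperm was sequenced, and 9 tables were deposited, 3 per group. Per the file headers, each row gives a sequence, its length in nt, its count of reads, a genome-match flag and an annotation. The deposited counts are raw whole numbers. edgeR appears in the submitters' processing notes. Which aligner, annotation tool and build were used is not given in the sources used here.

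Within each group no sequence had another read count in any of the 3 tables, and 0 to 3 sequences had other annotation terms. So 1 library stands for each group, and values side by side replaced the edgeR quasi-likelihood tests that had been planned. The members, lists and rules were chosen with earlier results of these data known.

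RPM is reads per 1000000 reads of a library. Intervals are exact: Clopper-Pearson for shares, and binomial for the log2 ratio of 2 counts. In a ratio, 3 reads stood in for a count of 0. A sequence was called apart at 2-fold, with at least 100 reads in the 2 libraries. Named sequences were the 8 5S and 5 5.8S sequences of highest mean RPM, and in each comparison the 3 highest and 3 lowest 5S ratios. Several 5S sequences taken by these rules are not reported here. The sequences with bases past the chain, and the extended 5.8S one, were chosen after their values were seen. The 5S chain was joined from members overlapping by 14 nt or more, and reads were placed with at most 1 mismatch. Reads past base 119 were found by the last 14 bases of the chain and up to 3 bases after them. The log2 ratios with their intervals, the joining of a chain and the placement of reads were tested on simulated data. The other steps were not.

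Alternatives were annotated reads, TMM (edgeR 4.0.16) or DESeq2 1.42.0 factors as the scale, other read minimums, length limits, genome-matching reads and no mismatch. Python 3.11.15, R 4.3.3 and RNAfold 2.7.2 were used. 1 read is worth 0.121 RPM in OVER, 0.0760 in RES and 0.100 in CON.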

Additional observations from a re-analysis of the deposited data

Results flagged for a closer look

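Reads outside the annotated members were looked at because they hold whole member sequences. 5S reads without annotation counted 4126 RPM in OVER, 15534 RPM in RES and 18548 RPM in CON, each above the level of the annotated 5S reads of the same library. Reads with a whole 5.8S member under the general term rRNA counted 509 RPM in OVER, 1371 RPM in RES and 1305 RPM in CON. Of these rRNA-term reads, 25.2% in OVER, 13.7% in RES and 8.79% in CON matched the genome.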

How the results depend on the processing

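TMM moved all log2 ratios by 0.19 (OVER against CON), -0.23 (RES against CON) and 0.42 (OVER against RES), and DESeq2 factors by 0.28, -0.24 and 0.52. Values below are log2 ratios in that order of comparisons. For 5S they were -0.54, -0.080 and -0.46 per annotated read, -0.21, -0.080 and -0.13 with TMM, -0.13, -0.092 and -0.036 with DESeq2 factors, and -0.48, 0.0070 and -0.49 among genome-matching reads. Reads of 25 to 42 nt gave -0.80, 0.21 and -1.01. Added after seeing the data, reads outside the annotation gave -1.74, -0.19 and -1.55, and equal lengths -0.47, 0.19 and -0.50. For 5.8S the values that moved were 0.69 and 0.0027 per annotated read, 1.01, 0.0023 and 1.01 with TMM, 1.10, -0.0095 and 1.11 with DESeq2 factors, 0.089 (RES against CON) among genome-matching reads, 0.41 (RES against CON) and 0.42 (OVER against RES) at 25 to 42 nt, -1.73, -0.56 and -1.17 with reads outside the annotation, and -0.35, -0.10 and -0.18 with equal lengths. Genome-matching reads outside gave -1.74, -0.18 and -1.56 for 5S and 0.49, 0.52 and -0.026 for 5.8S, rRNA-term reads outside -1.06, 0.082 and -1.14 for 5.8S, and outside reads with equal lengths -0.14, 0.26 and 0.037 for 5S and -1.14, -0.51 and -0.69 for 5.8S. Thus 5S in OVER kept its direction against CON under all of these, against RES under all but the last, and RES against CON did not. Why the others changed was not tested, beyond the added or reweighted reads themselves.

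By distinct sequences, 15 to 20 nt held 41.3% of 5S in OVER, 22.8% in RES and 18.1% in CON, and of 5.8S 49.8% in RES and 39.7% in CON. Without mismatches, starts at base 1 held 23.2%, 34.6% and 37.6% of 5S reads in OVER, RES and CON, and 5.8S stretch 1 held 82.6% in RES and 90.3% in CON. Sequences at least 2-fold apart were 53, 27 and 64 in the 3 comparisons, 199, 114 and 244 from 20 reads, and 1668, 1793 and 1608 with no filter; the last sets rest on counts too low to order. No paired analysis was possible because the tables of a group are identical, and for the same reason no replicate could be left out. Ratios of sequences and stretches with few reads in 1 library, such as 5.8S stretches 3 and 4 in CON, have wide counting intervals.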
